A study of Mus musculus with 6 samples.

Results

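The core circadian clock genes were examined in RNA sequencing libraries from the brain of C57 mice, as 10 genes taken by symbol from a deposited expression table of 13170 genes. They are Per1, Per2, Per3, Cry1, Cry2, Arntl, Clock, Nr1d1, Nr1d2 and Dbp, and all 10 were listed. The study set 3 libraries of adult male mice of a high sexual motivation group against 3 libraries of a low sexual motivation group, and all 6 libraries carry the same strain label, with no transgene or treatment named. The medial amygdala, with signalling of the growth factor NRG1 through ErbB4, is the subject in the title, while an abbreviation in the extraction protocol (PrL) does not match that name. The sources used here do not give how motivation was scored, the time of day at which tissue was taken, or whether each library is 1 animal or a pool. All p-values therefore speak of the spread between libraries alone, part of which may be technical. Levels are in FPKM, which scales fragment numbers by transcript length and by the mapped total of a library.

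The circadian clock is a feedback loop of transcription that runs in nearly every cell. CLOCK, or its relative NPAS2, pairs with ARNTL (also called BMAL1) and activates genes that carry E-boxes, among them the Per and Cry genes, Nr1d1, Nr1d2 and Dbp. PER and CRY proteins return to the nucleus and repress the activators, the nuclear receptors NR1D1 and NR1D2 (REV-ERB alpha and beta) repress Arntl through ROR elements, and DBP activates genes through D-boxes. In most tissues sampled around the clock, Arntl RNA is therefore high when Per, Nr1d and Dbp RNA is low. The ratio between these arms thus changes over the day. Without the time of day, its value in a single library does not place the phase. In forebrain regions outside the suprachiasmatic nucleus the same genes cycle in step with signals from that nucleus, from feeding and from glucocorticoids.

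The promoter sequences below hold short stretches spelled like the elements that clock factors are known to bind; they are letter matches, and these data do not test whether they act. They are RefSeq windows of GRCm38.p6, each running from 250 bases before to 50 bases after an annotated start and printed along the gene's own strand, with matches in capitals. Per3 is shown because its groups did not overlap, Per1 because its level was the steadiest, and Cry1 and Arntl as an E-box target and as the gene with a ROR element core. Per3 (chr4:151044616-151044915, minus strand) holds the D-box TTATGTAA at 205 and at 158 bases before the start. Per1 (chr11:69098699-69098998, plus strand) holds the E-box CACGTG at 166 bases before the start. Cry1 (chr10:85185005-85185304, minus strand) holds CACGTG at 60 and the related E-prime box CACGTT, on the opposite strand, at 79 bases before the start. Arntl (chr7:113207261-113207560, plus strand) holds the ROR element core TAGGTCA 30 bases after the start.
Per3: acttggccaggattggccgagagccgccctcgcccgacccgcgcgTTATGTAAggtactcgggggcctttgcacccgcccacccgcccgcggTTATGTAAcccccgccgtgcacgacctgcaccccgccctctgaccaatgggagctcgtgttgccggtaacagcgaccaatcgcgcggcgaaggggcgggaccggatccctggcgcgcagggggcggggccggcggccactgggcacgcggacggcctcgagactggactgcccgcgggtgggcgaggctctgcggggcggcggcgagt
Per1: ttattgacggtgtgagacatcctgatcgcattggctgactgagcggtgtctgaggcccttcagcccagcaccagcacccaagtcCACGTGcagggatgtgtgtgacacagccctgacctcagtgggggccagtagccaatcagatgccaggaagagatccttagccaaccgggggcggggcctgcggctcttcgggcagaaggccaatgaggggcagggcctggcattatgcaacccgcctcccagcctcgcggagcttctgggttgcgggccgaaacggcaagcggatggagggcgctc
Cry1: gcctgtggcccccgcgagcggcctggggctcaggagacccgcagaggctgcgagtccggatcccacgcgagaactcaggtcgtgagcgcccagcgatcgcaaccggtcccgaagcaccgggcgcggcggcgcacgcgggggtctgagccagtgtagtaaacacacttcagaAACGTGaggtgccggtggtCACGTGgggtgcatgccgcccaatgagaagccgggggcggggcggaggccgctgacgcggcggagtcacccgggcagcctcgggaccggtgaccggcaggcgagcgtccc
Arntl: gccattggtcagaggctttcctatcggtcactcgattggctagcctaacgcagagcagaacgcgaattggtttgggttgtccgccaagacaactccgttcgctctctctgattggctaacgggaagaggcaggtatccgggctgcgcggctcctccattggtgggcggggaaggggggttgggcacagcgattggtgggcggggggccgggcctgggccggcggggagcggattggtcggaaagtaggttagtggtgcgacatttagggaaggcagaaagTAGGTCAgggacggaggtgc

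Windows were at hand for 9 of the 10 members, 13 windows in all. Both strands were searched for the E-box in the spelling CACGTG and for the E-prime box in the spelling CACGTT. The D-box was searched as TTATGTAA or TTACGTAA and the cyclic AMP response element as TGACGTCA. The ROR element core was searched in the spelling TAGGTCA and also in the related spelling TGGGTCA. Over all 32851 RefSeq windows of this length, 7.15% held the E-box, 4.68% the E-prime box, 1.06% a D-box, 6.45% a ROR element core and 1.79% the cyclic AMP element. Of the 9 members, 6 held at least 1 match, Cry2 and Nr1d1 each through CACGTT, and no matches overlapped. Clock, Nr1d2 and Dbp held none of these letters in their windows, which says nothing of sites elsewhere. The count of 6 is per gene, over all motifs and all windows of a gene, while the shares are per motif and per window. No share of genes with any match was computed, so the count has no like background.

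Relative depth, read from the steps that whole fragments leave in low FPKM values, spanned 0.954 to 1.33 over the libraries, absolute depth is unknown, and log2 values of library pairs correlated between 0.979 and 0.991. Low libraries 1 and 3 stood apart in choroid plexus markers. Ttr, the most abundant of these, had 62.3, 102 and 33.5 FPKM in the high libraries, against 1290, 73.5 and 4016 FPKM in the low libraries, so that low library 2 lay among the high libraries. The 7 choroid plexus markers summed to 39.0 to 109 FPKM in the high libraries and 78.8 to 4138 FPKM in the low libraries, with 7 of 7 lower, 0 past the limma test and none at 0. The 6 ependymal markers summed to 10.8 to 12.8 FPKM in the high libraries and 18.8 to 38.4 FPKM in the low libraries, with 6 of 6 lower and 0 past the test. Higher means in the high group were found for 7 of 7 oligodendrocyte markers (sums of 341 to 407 FPKM in the high libraries and 313 to 349 FPKM in the low libraries), 5 of 5 endothelial markers (35.2 to 43.9 FPKM in the high libraries and 30.5 to 35.4 FPKM in the low libraries) and 5 of 5 tested leptomeningeal markers (8.03 to 31.0 FPKM in the high libraries and 6.93 to 13.1 FPKM in the low libraries), with overlapping sums and 0 past the test. Sums of neuronal, astrocyte and microglial markers overlapped too, with Snap25, a neuronal gene, at 225 to 264 FPKM in the high libraries and 228 to 240 FPKM in the low libraries. Of 6 genes listed for the suprachiasmatic nucleus, though not particular to it, 2 were among the genes analysed. Avp, a neuropeptide gene, had 3.40, 3.28 and 15.8 FPKM in the high libraries, against 3.41, 3.11 and 1.02 FPKM in the low libraries. High library 3 thus stood far above the rest. Vip, the other of these, lay at 3.84 to 6.36 FPKM in the high libraries and 5.21 to 7.56 FPKM in the low libraries. The region that Avp and Vip transcripts came from was not tested. Of 6 amygdala markers all were listed and 3 had a mean high enough to be tested, with 0 past the test. Among the untested, Lhx9 lay at 0.40 to 1.04 FPKM in the high libraries and 0.40 to 0.89 FPKM in the low libraries. Esr1, also untested, had 0.45, 0.70 and 0.81 FPKM in the high libraries, against 1.09, 0.94 and 1.16 FPKM in the low libraries. Its groups were apart, and those of the other amygdala markers overlapped. Taken singly, 4 of the 7 oligodendrocyte markers had all high libraries above all low libraries, where 7.33% of all tested genes did. In 5 of the 6 ependymal markers all high libraries lay below, where 7.61% of all tested genes did. Among 6 microglial markers, 2 had all high libraries above (C1qa and C1qb) and 1 had all below (P2ry12). All high libraries lay above in 1 of 5 endothelial markers and below in 2 of 7 choroid plexus markers. An unadjusted limma p under 0.05 was reached by 4 of the oligodendrocyte and 6 of the ependymal markers, against 8.39% of all genes. It was also reached by 5 of 7 choroid plexus, 2 of 6 microglial, 2 of 5 tested leptomeningeal and 1 of 5 endothelial markers. Of the neuronal and astrocyte markers 0 reached it. In bulk tissue fewer cells of a type and less RNA per cell cannot be told apart.

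Ranked by level, 7 of the 9 neighbouring pairs of the 10 genes stood in the same order in all 6 libraries. Nr1d1, the repressor of Arntl, stood highest with a mean of 31.4 FPKM over the 6 libraries, followed by the cryptochrome Cry2 at 29.0 and by Per1 at 19.5. Dbp (14.9), Per2 (14.1) and Nr1d2 (12.3) lay close together, and their ranges overlapped, with Dbp above Per2 in 4 libraries and Per2 above Nr1d2 in 3. Per3 (7.07) and Cry1 (5.72) came next, and the activators were lowest, Arntl at 4.74 and Clock at 3.51. Between neighbours in this order the ranges were apart for Cry2 above Per1, Per1 above Dbp, and Arntl above Clock, and overlapped in the other 6 of 9 pairs.

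**Figure D1:**
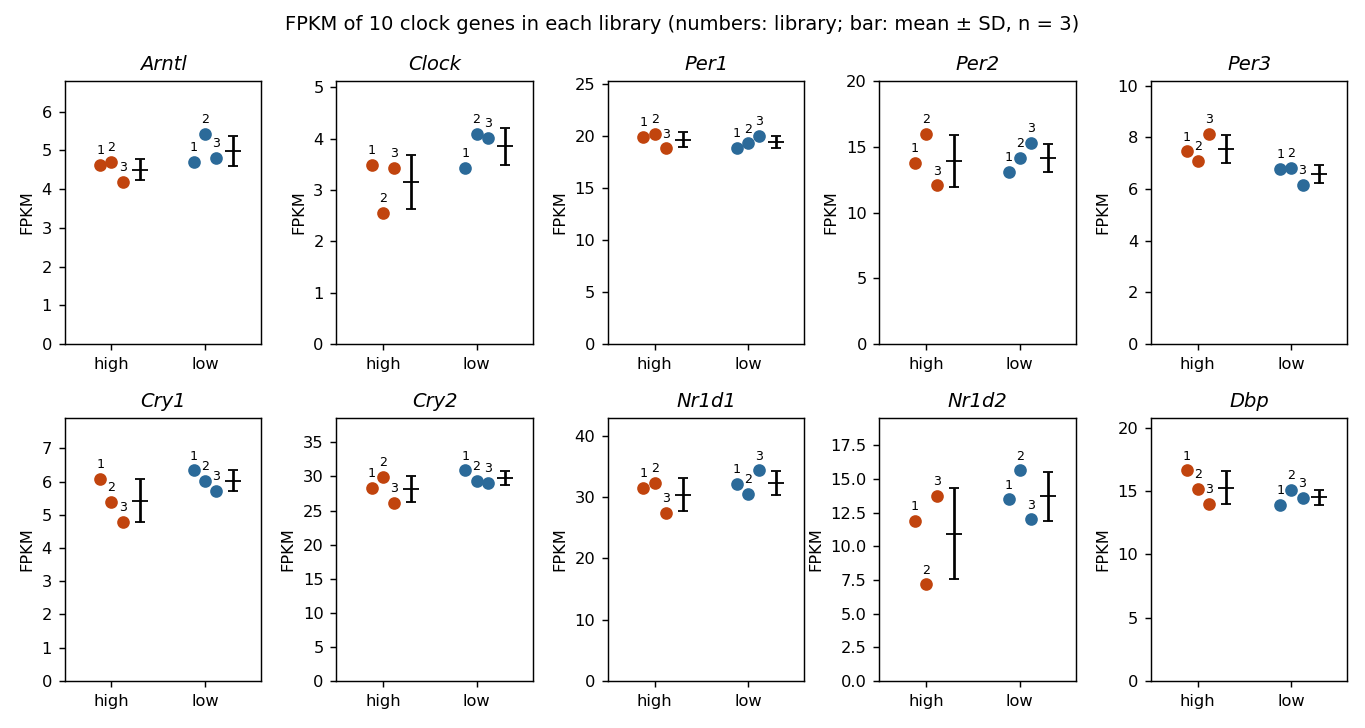
FPKM of the 10 clock genes, with 1 point per library (the number is the library), the high group left of the low group, and bars for the mean and SD of 3 libraries on axes that start at 0. Only the Per3 points of the high group all lie above those of the low group, and high library 2 lies lowest for Clock and Nr1d2.

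No clock gene differed between the groups past the test. By limma over 12026 genes, 0 of the 10 members had an adjusted p under 0.05, where the share of all tested genes called was 0% (0 of 12026, the smallest adjusted value being 0.363). Before adjustment, 0 members were under 0.05, against 8.39% of all genes, or 1009. The groups did not overlap in 1 member, Per3, where 14.9% of all genes had groups apart. Of the 10, 3 had a positive log2 difference (50.1% of all genes) and 7 a negative one (49.9% of all genes), taken as high minus low of log2(FPKM + 1), with a median of -0.08 beside 0.00018 over all genes. An exact 2-sided permutation test of 3 against 3 libraries cannot go below 0.1.

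In the activator arm, both genes had lower means in the high group, with overlapping values. Arntl, the obligate partner of the activating pair, had 4.63, 4.70 and 4.18 FPKM in the high libraries, against 4.69, 5.43 and 4.81 FPKM in the low libraries. The highest of the high libraries was level with the lowest of the low libraries. Its log2 difference was -0.12 (SE 0.0809; 95% interval -0.31 to 0.07; limma adjusted p = 0.691). Clock, the partner with acetyltransferase activity, had 3.49, 2.55 and 3.44 FPKM in the high libraries, against 3.44, 4.10 and 4.03 FPKM in the low libraries. High library 2 was the lowest of all 6 for Clock, and high library 1 lay above low library 1. The Clock difference was -0.23 (SE 0.113; 95% interval -0.49 to 0.03; adjusted p = 0.605), and -0.12 without high library 2. Npas2, the alternative partner of ARNTL in forebrain, averaged 10.9 ± 0.773 FPKM in the high group and 11.7 ± 0.643 FPKM in the low group (SD, n = 3 each).

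Among the Period genes, whose products carry the repressor complex, Per3 was the 1 member whose groups were apart. Per3 had 7.45, 7.08 and 8.14 FPKM in the high libraries, against 6.77, 6.81 and 6.17 FPKM in the low libraries. Every high library thus lay above every low library, with high library 2 and low library 2 closest. The ratio of means was 1.15 and the log2 difference 0.17 (SE 0.0758; 95% interval -0.0012 to 0.35), with an unadjusted p of 0.0513, rank 1024 of 12026 genes, and an adjusted p of 0.596. The exact permutation p was 0.1, the smallest this design gives. Groups apart in that direction were found in 7.33% of all tested genes. With the choroid plexus level as a covariate the Per3 difference was 0.10 (limma adjusted p = 0.837). Without low libraries 1 and 3, which leaves low library 2 as the only low library, it was 0.13. The part of the other cell types in the Per3 difference was not tested.

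Per1, the Period gene that also responds to neuronal activity and glucocorticoids, was almost level across libraries. Per1 had 19.9, 20.2 and 18.8 FPKM in the high libraries, against 18.9, 19.3 and 19.99 FPKM in the low libraries. The highest library exceeded the lowest 1.07-fold, a smaller spread than in all but 1.40% of tested genes. Its log2 difference was 0.019 (SE 0.0601) with a 95% interval of -0.12 to 0.16. Per2, whose loss disrupts the daily rhythm of mice, had 13.8, 16.0 and 12.1 FPKM in the high libraries, against 13.1, 14.1 and 15.3 FPKM in the low libraries. High libraries 2 and 3 were the highest and the lowest of all 6, so the low group lay inside the high group (log2 difference -0.026, SE 0.104; 95% interval -0.27 to 0.21).

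The cryptochromes, the direct repressors of CLOCK and ARNTL, had slightly lower means in the high group. Cry1 had 6.09, 5.39 and 4.79 FPKM in the high libraries, against 6.34, 6.02 and 5.72 FPKM in the low libraries. High libraries 2 and 3 lay below all low libraries and high library 1 lay among them (log2 difference -0.13, SE 0.0899; 95% interval -0.34 to 0.07; adjusted p = 0.688). Cry2 had 28.3, 30.0 and 26.2 FPKM in the high libraries, against 30.9, 29.4 and 29.1 FPKM in the low libraries. High library 2 lay inside the low range and the other high libraries below it (log2 difference -0.08, SE 0.0683; 95% interval -0.24 to 0.08). Cry2 exceeded Cry1 by 4.65-fold to 5.57-fold in the high libraries and by 4.88-fold to 5.08-fold in the low libraries.

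Of the REV-ERB genes, Nr1d2 varied most of all members and Nr1d1 little. Nr1d1 had 31.5, 32.4 and 27.5 FPKM in the high libraries, against 32.2, 30.5 and 34.4 FPKM in the low libraries. High library 3 was the lowest and the rest intermingled (log2 difference -0.09, SE 0.0804; 95% interval -0.27 to 0.10; adjusted p = 0.762). Nr1d2 had 11.9, 7.17 and 13.7 FPKM in the high libraries, against 13.5, 15.6 and 12.01 FPKM in the low libraries. High library 2 stood well below the other 5, among which the groups overlapped. The Nr1d2 difference was -0.34 (SE 0.204; 95% interval -0.81 to 0.13; adjusted p = 0.657) and -0.09 without high library 2. The ratio of Nr1d1 to Nr1d2 was 2.65, 4.52 and 1.998 in the high libraries, against 2.39, 1.95 and 2.86 in the low libraries. The highest library exceeded the lowest 2.18-fold for Nr1d2, a wider spread than in 95.0% of tested genes, while the median over the members was 1.31 and over all tested genes 1.28.

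Dbp, the D-box activator and among the most strongly cycling outputs of the loop in many tissues, had 16.6, 15.2 and 14.0 FPKM in the high libraries, against 13.9, 15.1 and 14.5 FPKM in the low libraries. High library 1 was the highest, and the other 5 lay within a narrow band. Its log2 difference was 0.07 (SE 0.0759; 95% interval -0.11 to 0.24; adjusted p = 0.807), and 0.0079 without high library 1. The highest library exceeded the lowest 1.19-fold.

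**Figure D2:**
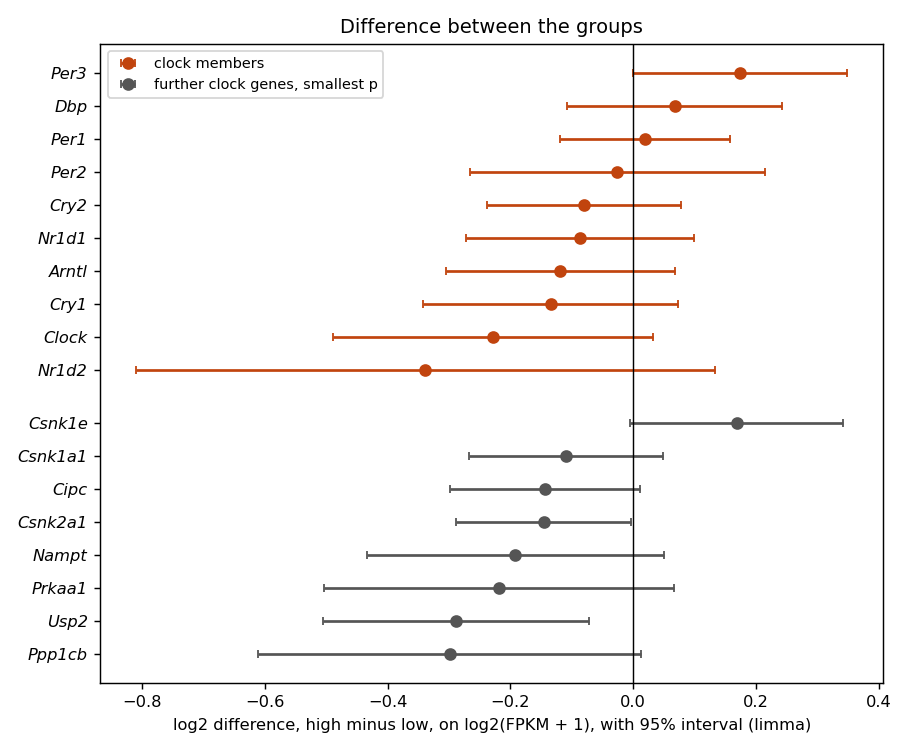
Log2 difference (high minus low, x axis) with its 95% interval from limma for the 10 clock members and the 8 further clock genes with the smallest p. All 10 member intervals include 0, the Per3 interval by the least (-0.0012 to 0.35), and the intervals of Usp2 and Csnk2a1 lie below 0 before adjustment for the number of genes.

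Reads of some members cannot be assigned with certainty, because the labels do not say whether strand was used in counting. In the GENCODE annotation of GRCm38, 263 of the 3077 exonic bases of Nr1d1 (chromosome 11, 98767932 to 98775333, minus strand) are shared with Thra, a thyroid hormone receptor gene on the other strand. Thra stood at 190 ± 17.1 FPKM in the high group and 189 ± 8.15 FPKM in the low group. In the same way 539 of 2993 exonic bases of Dbp (chromosome 7, 45705088 to 45710203, plus strand) are shared with Sphk2, a sphingosine kinase gene, at 7.84 ± 1.2 FPKM in the high group and 7.58 ± 0.202 FPKM in the low group. Arntl shares 33 of 7523 and Cry2 295 of 6320 exonic bases with antisense or noncoding genes that were not analysed here. The rank of Nr1d1 above Cry2 and its ratio to Nr1d2 carry this uncertainty, and the share of Thra reads in Nr1d1 was not tested.

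The levels of the arms relative to each other were then read within each library. The mean log2(FPKM + 1) of Arntl, Clock and Npas2 minus the mean of the 6 output genes (Per1, Per2, Per3, Nr1d1, Nr1d2, Dbp) was -1.27, -1.28 and -1.31 in the high libraries, against -1.22, -1.12 and -1.17 in the low libraries. All high libraries lay below all low libraries, by 0.12 on average (high -1.29 ± 0.0196, low -1.17 ± 0.0539, SD, n = 3 each). The activator mean was 2.69 ± 0.0591 for the high and 2.84 ± 0.0851 for the low group, and the output mean was 3.98 ± 0.0499 for the high and 4.01 ± 0.0313 for the low group. Arntl minus Dbp was -1.65, -1.504 and -1.53 in the high libraries, against -1.39, -1.33 and -1.41 in the low libraries, again without overlap. These are descriptions of scores over chosen genes and carry no test.

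With the part of each library that followed transcript GC content and length taken out, each difference between the arms was smaller and the groups overlapped. The activator minus output value was then -1.27, -1.19 and -1.33 in the high libraries, against -1.25, -1.17 and -1.17 in the low libraries, and the mean difference was -0.07. Arntl minus Dbp was -1.61, -1.42 and -1.52 in the high libraries, against -1.45, -1.44 and -1.38 in the low libraries, with a mean difference of -0.09.

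**Figure D3:**
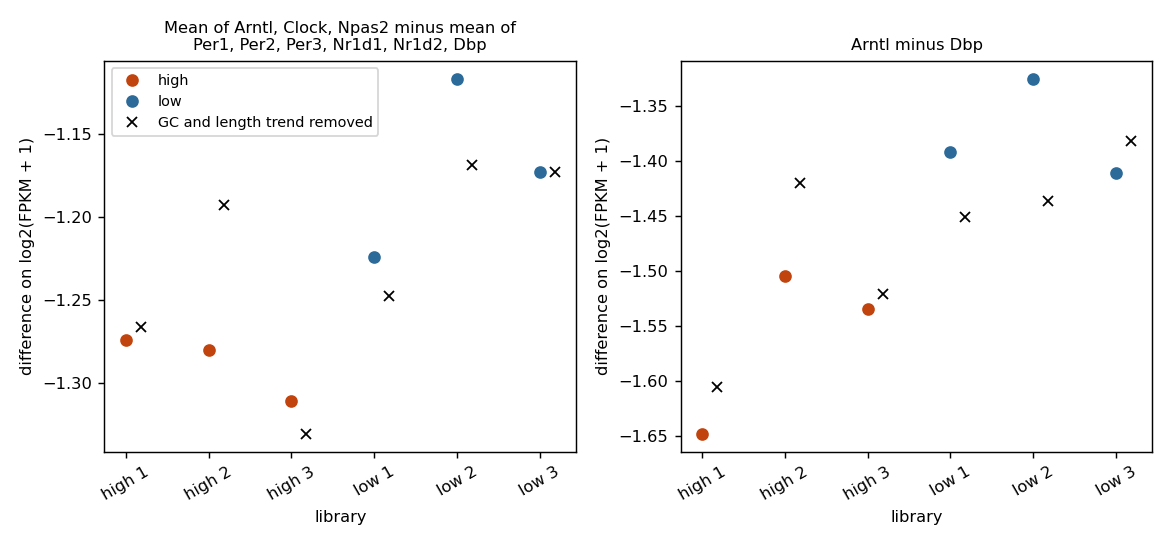
Difference between the activator and the output arm (left) and between Arntl and Dbp (right) in each library on the log2(FPKM + 1) scale; circles are values as deposited, crosses the same without the GC and length trend, and the axes do not start at 0. The circles of the high libraries lie below those of the low libraries in both panels, while the crosses of the groups overlap.

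Against the mean of the 6 libraries on log2(FPKM + 1), Arntl was nearly level in high library 2 (-0.0078), with 5 of 6 output genes above. Of these, Per3 was above by only 0.0052, and the output gene below, Nr1d2, was at -0.67. In high library 1 Arntl was at -0.026, with 4 output genes above. In high library 3 (-0.145) and, by little, in low library 1 (-0.0091) Arntl was below together with 4 of the 6 output genes. In low libraries 2 (0.166) and 3 (0.021) it was above, with 3 output genes on either side. High library 3 was the lowest of the 6 for 6 members at once, namely Arntl together with Per1, Per2, Cry1, Cry2 and Nr1d1. It was the highest for Per3. Avp was highest in the same library, and so was the share of FPKM from mitochondrial genes (16.4%). That share was lowest in high library 2 (11.1%). The part of Avp and of the mitochondrial share in these values was not tested. Low library 2 was the highest for Arntl, Clock and Nr1d2, and high library 2 was the highest for Per1 and Per2 and the lowest for Clock and Nr1d2. Over the 6 libraries Arntl correlated positively with 8 of the other 9 members and negatively with Per3. For Per3, Pearson's r was -0.65 (exact permutation p = 0.136, adjusted 0.565 over 9 relations) and Spearman's rho -0.71 (exact permutation p = 0.136, adjusted 0.613). It was -0.97 without low library 2 and high library 3, the libraries farthest from the Arntl median, and -0.29 on deviations from the group means.

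None of the 9 relations of Arntl passed, at an exact permutation p whose smallest possible value is 0.00278, and 0 had an unadjusted p under 0.05. With the GC and length trend removed, the relation with Per1 had an r of 0.85 (exact permutation p = 0.0417, adjusted 0.370), where it had been 0.22. With Dbp, r was 0.25 (exact permutation p = 0.672, adjusted 0.696; rho 0.14, exact permutation p = 0.803; -0.64 without those 2 libraries; 0.75 within groups). With Nr1d1, r was 0.42 (exact permutation p = 0.374, adjusted 0.565; rho 0.43, exact permutation p = 0.419; 0.99 without those 2 libraries; 0.19 within groups). For the 6 remaining members r lay between 0.21 for Nr1d2 and 0.63 for Cry1, with adjusted exact permutation p-values of 0.565 to 0.696. The signs for Dbp and Cry1 rested on low library 2 and high library 3, since r with Cry1 was -0.36 without them. On deviations from the group means r was -0.20 for Nr1d2 and -0.03 for Clock.

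**Figure D4:**
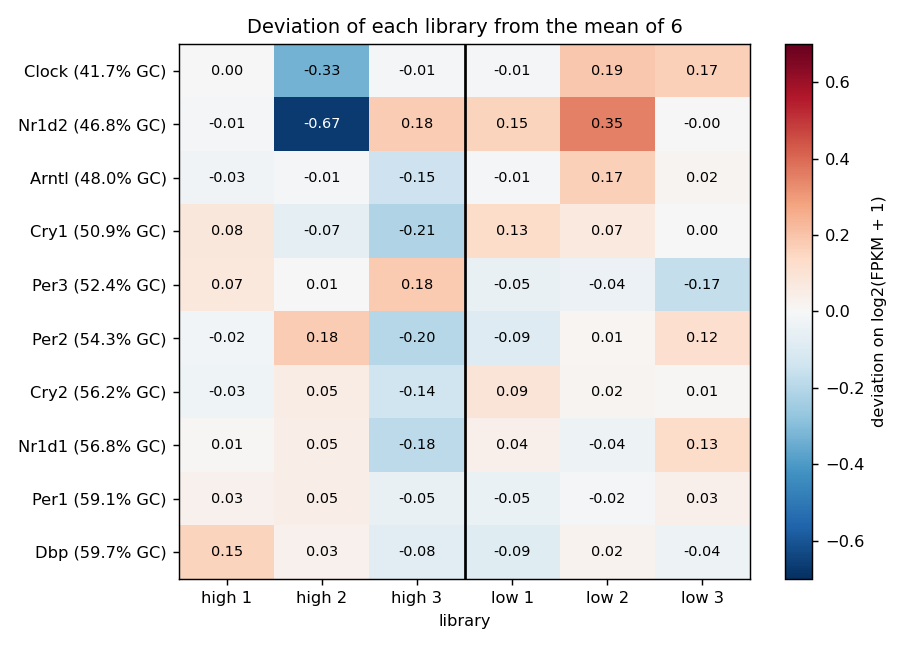
Deviation of each library (columns, high left of low) from the mean of 6 on the log2(FPKM + 1) scale for the 10 clock genes, ordered from low to high GC content of their transcripts. High library 2 is lowest for Clock (-0.33) and Nr1d2 (-0.67), and high library 3 is below the mean in 8 of 10 genes. With the GC and length trend removed (not drawn), high library 2 was at -0.11 for Clock and still at -0.62 for Nr1d2.

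The members differ in base composition, and this moved with the comparison. Mean transcript GC content ran from 41.7% in Clock, 46.8% in Nr1d2 and 48.0% in Arntl to 59.1% in Per1 and 59.7% in Dbp. Over the 10 members the log2 difference was larger at higher GC content (Spearman's rho 0.75, across genes that share libraries), and over 11924 tested genes the rho was 0.38. The deviation of high library 2 followed GC content with a rho of 0.42 and that of low library 2 with a rho of -0.49 over the same genes. With the GC and length trend removed, the difference of Clock was -0.10 where it had been -0.23, that of Dbp was 0.0105 where it had been 0.07, and that of Per1 was -0.0084. That of Nr1d2 was -0.29 where it had been -0.34, and that of Per3 was 0.18 where it had been 0.17. Per3 still had groups apart.

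**Figure D5:**
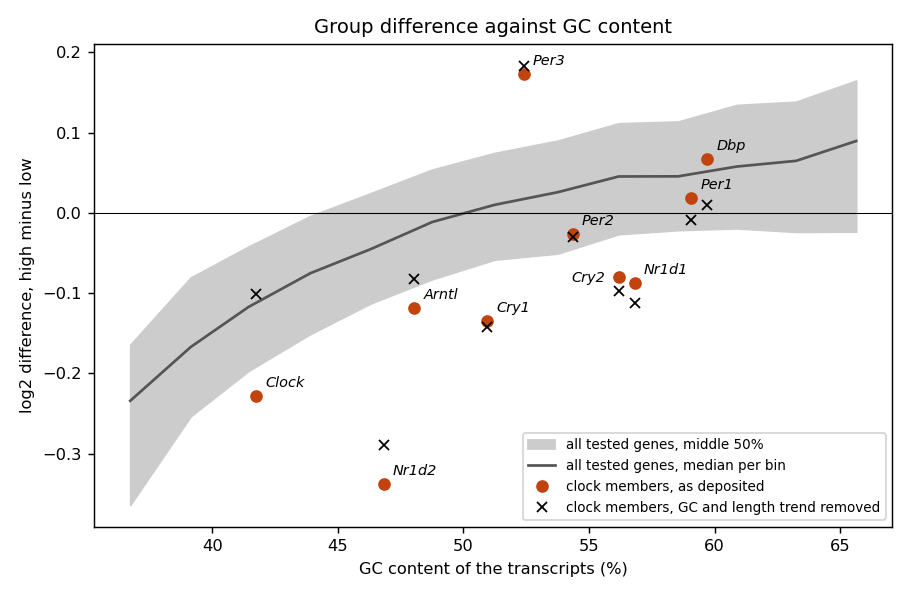
Log2 difference (high minus low) against the GC content of the transcripts, with the median (line) and middle 50% (band) of all tested genes in bins of GC content, clock members as deposited (circles) and without the GC and length trend (crosses). The line climbs with GC content, and Clock, Nr1d2, Arntl and Dbp move toward 0 when the trend is removed. Per3, Nr1d2, Cry1, Cry2 and Nr1d1 lie outside the band with and without the trend. The line and band are of differences as deposited, so the crosses have no band of their own.

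A wider list of 38 clock genes, covering the ROR activators, kinases, ubiquitin ligases, D-box factors and corepressors, showed no call either. All 38 were in the table and 36 passed the expression filter of a mean of 1 FPKM, with Fbxl21 and Timeless below it. Of the 36, 0 passed in either direction, 11 had a positive and 25 a negative log2 difference, and the median was -0.03, beside 0.00018 over all genes. Groups were apart in 5 of the 36, where 14.9% of all genes were apart in either direction. All 5 had the high libraries below the low libraries, where 7.61% of all genes were apart in that direction. An unadjusted limma p under 0.05 was reached by 2 of the 36, Usp2 and Csnk2a1, against 8.39% of all genes.

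Usp2, a deubiquitinase that acts on clock proteins and is itself a clock output, had 8.12, 10.1 and 8.87 FPKM in the high libraries, against 11.1, 10.3 and 12.3 FPKM in the low libraries. The groups were apart, with high library 2 and low library 2 nearly level (log2 difference -0.29, SE 0.0938; unadjusted p = 0.0152; limma adjusted p = 0.557). Csnk2a1, a catalytic subunit of casein kinase 2, averaged 11.8 ± 0.341 FPKM in the high group and 13.2 ± 0.529 FPKM in the low group (log2 difference -0.15; adjusted p = 0.589). Cipc, a CLOCK-interacting repressor, and Prkaa1, a catalytic subunit of the kinase AMPK, had groups apart as well. Cipc averaged 20.5 ± 1.08 FPKM in the high group and 22.7 ± 1.11 FPKM in the low group, and Prkaa1 5.82 ± 1.14 FPKM in the high group and 6.86 ± 0.347 FPKM in the low group. The other gene with groups apart was Ncor1, a corepressor that works with REV-ERB proteins, at 13.7 ± 0.538 FPKM in the high group and 14.7 ± 0.373 FPKM in the low group.

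Csnk1e, a casein kinase 1 that phosphorylates PER proteins, had a positive difference, with 18.8 ± 1.64 FPKM in the high group and 16.6 ± 0.536 FPKM in the low group (log2 difference 0.17; adjusted p = 0.596). Ppp1cb, a phosphatase catalytic subunit, averaged 16.9 ± 3.44 FPKM in the high group and 20.8 ± 1.16 FPKM in the low group. Nampt, an enzyme of NAD salvage that is driven by the clock, averaged 7.63 ± 1.16 FPKM in the high group and 8.81 ± 0.521 FPKM in the low group. Csnk1a1, another casein kinase 1, averaged 17.4 ± 1.23 FPKM in the high group and 18.8 ± 0.440 FPKM in the low group. These 4 overlapped between the groups. Of the D-box factors related to Dbp, Tef averaged 61.7 ± 3.1 FPKM in the high group and 60.8 ± 2.13 FPKM in the low group, and Hlf averaged 17.1 ± 1.33 FPKM in the high group and 17.6 ± 1.44 FPKM in the low group. Nfil3, which represses through the same D-box, averaged 4.78 ± 0.512 FPKM in the high group and 5.07 ± 0.324 FPKM in the low group. Tef, Hlf and Nfil3 were singled out after their values were seen, as were Npas2, Ncor1 and the markers named by symbol.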

How the data were processed

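Poly(A) RNA of 3 high and 3 low libraries was sequenced, and fastp, HISAT2 and StringTie were used with GRCm38, per the submitters' processing notes, with no versions given. The authors deposited FPKM per gene and library, a log2 fold change and a p-value. On recomputing, the deposited log2 fold change equals the log2 ratio of group means, and the deposited p-value an unadjusted equal-variance test, in all 13170 genes (tolerance 1e-06). They are not used in the results. Groups follow the labels.

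FPKM were taken as log2(FPKM + 1), genes with a mean of at least 1 FPKM were kept (12026), and limma 3.58.1 (R 4.3.3) compared the groups 2-sided with a variance trend and Benjamini-Hochberg adjustment at 0.05 over all tested genes. The fit was tested on simulated data. Single values used exact permutation tests (scipy 1.17.1 in Python 3.11.15). GC content and length are means over the coding transcripts of GENCODE M21, found for 13055 genes, and their trend was removed with splines of 5 degrees of freedom. Libraries of the same number in the 2 groups did not deviate together (r of -0.09, -0.21 and -0.16). Deviations from means of 3 libraries are tied to each other, so these values cannot exclude a shared batch. The labels give no pairing, and the main fit used none.

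The members and the gene lists were chosen with earlier results of these data known. Some genes of the planned clock list are not reported here. Named are all members, the 8 further clock genes with the smallest p, genes that overlap a member, the 5 genes most like Arntl and most like Dbp, and 4 genes each of 3 response lists, with exceptions stated where they are named. Alternatives were other pseudocounts, filters, scalings and variance models, array weights, the replicate block, the GC and length trend, a choroid plexus covariate, and libraries left out.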

Additional observations from a re-analysis of the deposited data

How the results depend on the processing

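The 10 differences kept their direction and stayed short of the threshold in 191 of 198 recomputed values, with a smallest adjusted p of 0.339 (limma), and the counts of members, of further clock genes and of all genes past the threshold were 0 under all 20 alternatives. Per3 ranged from 0.10 to 0.21. The other 7 values changed sign, in Per1, Per2 and Nr1d1: Per1 was -0.0084 with the GC and length trend removed, with or without the block, and Per2 was 0.0363 and Nr1d1 0.0118 with the choroid plexus covariate. Leaving out 1 library each put Per1 between -0.00077 and 0.0488 and Per2 between -0.123 and 0.0672. The correlation of Arntl with Nr1d2 was -0.0278 under quantile normalization; with the GC and length trend removed, that with Per1 was 0.85 and that with Dbp 0.58. Activator minus output, high minus low, was -0.0669 and Arntl minus Dbp -0.0929 with the GC and length trend removed, with or without the block, and activator minus output was -0.17 without low libraries 1 and 3; the cause was not tested. With the replicate number as a block, the adjusted p of Per3 was 0.757, and no call changed. Arntl and Clock have means under 5 FPKM and give no value under the stricter filter. A count model was not run, since FPKM did not give whole reads for all genes. With 3 libraries a group, the median SE of a log2 difference was 0.09, which limits what could be detected.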

Other observations

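Genes that respond to signals known to reset the clock were read in the same fit. Of 10 immediate early genes, which neuronal activity induces, 7 had a positive and 3 a negative log2 difference, 0 passed the limma test and 1 had an unadjusted p under 0.05. Fos had 12.5, 8.41 and 9.55 FPKM in the high libraries, against 6.98, 11.4 and 11.7 FPKM in the low libraries, and Egr1 39.9, 31.4 and 25.6 FPKM in the high libraries, against 30.5, 33.3 and 27.7 FPKM in the low libraries. Arc averaged 28.2 ± 4.59 FPKM in the high group and 25.0 ± 4.94 FPKM in the low group, and Nr4a1 19.3 ± 2.84 FPKM in the high group and 18.9 ± 1.605 FPKM in the low group (SD, n = 3 each). Of 9 genes induced by glucocorticoids, 5 were positive and 4 negative (50.1% and 49.9% of all genes). Of the 9, 0 passed and 0 had an unadjusted limma p under 0.05, against 8.39% of all genes. Fkbp5, a chaperone of the glucocorticoid receptor, averaged 9.97 ± 1.81 FPKM in the high group and 9.60 ± 0.254 FPKM in the low group.

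Tsc22d3 averaged 13.1 ± 2.12 FPKM in the high group and 11.3 ± 0.963 FPKM in the low group, Sgk1 9.49 ± 0.510 FPKM in the high group and 10.8 ± 2.20 FPKM in the low group, and Pdk4 2.44 ± 0.178 FPKM in the high group and 2.92 ± 0.264 FPKM in the low group. For Pdk4 all high libraries lay below all low libraries, as in 7.61% of all tested genes. Fkbp5, Tsc22d3 and Sgk1 overlapped between the groups. Of 8 genes that respond to temperature, 3 were positive and 5 negative (50.1% and 49.9% of all genes). Of the 8, 0 passed and 0 had an unadjusted limma p under 0.05, against 8.39% of all genes. The cold-induced RNA-binding protein genes Cirbp and Rbm3 averaged 20.4 ± 0.710 and 10.6 ± 0.743 FPKM in the high group, and 19.98 ± 1.40 and 11.9 ± 1.598 FPKM in the low group. Hspa1a averaged 2.67 ± 0.107 FPKM in the high group and 2.74 ± 0.395 FPKM in the low group, and Hspa8 395 ± 38.2 FPKM in the high group and 379 ± 15.7 FPKM in the low group.

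The genes whose log2(FPKM + 1) followed Arntl most closely over the 6 libraries were Rnf19a (Pearson's r 0.99), Npas2 (0.98), Fam49a (0.97), Egr2 (0.96) and Tctex1d2 (0.95), out of 12025 others of which 46 exceeded 0.9. For Dbp they were Tek (0.99), Ppih (0.99), Ints14 (0.98), Ccm2 (0.97) and Helz (0.97), with 50 above 0.9. These are descriptions over the same 6 libraries, which differ in depth and in how their levels followed GC content, and the genes are the highest of many. Npas2, the relative of Clock, thus ranked 2 for Arntl, while Clock ranked 2095 (r 0.42).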
